A study of Mus musculus with 6 samples.

Results

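Adenylyl cyclases are the enzymes that make cyclic AMP (cAMP), and the 9 membrane-bound members of this family, Adcy1 to Adcy9, are described here in the olfactory epithelium of the mouse. A gene was included when the platform annotation of the array named it alone for a probe set, the group of short DNA probes that reads one transcript. All 9 genes were found, of 18194 genes in the table, and 21 probe sets represent them. The samples were olfactory epithelium RNA from mice carrying the OMP-GFP allele. Homozygous and heterozygous mice were represented by 3 Affymetrix mouse expression arrays per genotype, and are named homozygous 1 to 3 and heterozygous 1 to 3 by the numbers of their titles. In this line, as background knowledge, the green fluorescent protein replaces the coding part of Omp, the gene of olfactory marker protein, so homozygous animals lack that protein and heterozygous animals keep an intact copy. All groups carry GFP, the copy number of GFP differs between them, and no wild-type array was used here. Strain, age and sex are not given in the labels, nor whether animals were pooled for an RNA. The p-values therefore reflect only how far these RNA samples varied, which may be technical.

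In an olfactory sensory neuron, an odorant receptor in the cilium activates the G protein Golf, which switches on type III adenylyl cyclase, the product of Adcy3. The cAMP it makes opens a cyclic nucleotide-gated channel, calcium enters, and a calcium-activated chloride current amplifies the response. The membrane cyclases differ in how calcium and G proteins act on them. Those encoded by Adcy1, Adcy3 and Adcy8 can be stimulated by calcium and calmodulin, those of Adcy2, Adcy4 and Adcy7 by G protein beta-gamma subunits, those of Adcy5 and Adcy6 are inhibited by calcium, and that of Adcy9 responds poorly to forskolin, a plant compound that activates the others.

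The values are MAS5 signals, a linear measure of probe set brightness. The 2% trimmed mean was 500 on every array and the median signal ran from 147.9 to 163.7. Ratios of the 3-prime to the 5-prime control probe sets ran from 0.705 to 0.755 for Gapdh and from 1.28 to 1.32 for Actb. Single arrays stood apart. In the array labelled heterozygous 1, the Omp probe set 1422199_at read 26.3, as in homozygous arrays (5.7 to 31.3), where the other heterozygous arrays read 4664 and 9143. At 1422200_at, the other Omp probe set, the arrays read 7919 to 8774 with no such gap. Where either probe set lies in the gene is not known here, and the label was kept. The same array also had a summed signal of 19328 over the 5 measured markers of ensheathing and Schwann glia, against 9387 to 10129 elsewhere. This sum rose through Mbp (7268.5, against 655.2 to 1037.9 elsewhere) and Pmp22 (4898.6, against 850.8 to 1205.6). Of the rest, S100b (425.7, against 339.1 to 418.2) was barely higher and Sox10 (444.6) lay within 297.6 to 505.1. Fabp7 (6290.3, against 6697.0 to 7219.4) read lowest in this array. Heterozygous 3 had the highest signal for 10 of 13 measured markers of olfactory bulb and brain neurons. Homozygous 1 stood apart at neutrophil and erythroid markers. Ngp read 644.0 there, against 202.1 to 285.4 elsewhere, and Alas2 read 616.1, against 169.1 to 344.5. Ltf of the neutrophil list (5625.3) lay within 4908.5 to 8209.6. Where leaving out heterozygous 1 or heterozygous 3 moved a described result most, its value without that array is given. Leaving out both heterozygous 1 and 3 keeps heterozygous 2 as the 1 heterozygous array, which is then assumed to vary like the homozygous ones. Of the 11 markers of mature olfactory neurons measured, 10 read 1364.5 or more on every array, which matches the labelled tissue, and Cngb1, a channel subunit gene, read 42.1 to 79.7.

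Adcy3 had the highest signal of the family on every array, and 3 of its 4 probe sets were the 3 brightest of the 21 on all 6. Probe set 1421960_at read 5841, 4792 and 4793 in homozygous 1, 2 and 3, and 5431, 4909 and 3349 in heterozygous 1, 2 and 3. On each array it lay between the 95.8th and the 98.0th percentile of all probe sets. The groups overlapped, and the lowest value was that of heterozygous 3. Probe set 1421959_s_at read 2785, 2816 and 2855 in homozygous arrays and 3148, 2319 and 1746 in heterozygous arrays. Probe set 1436928_s_at read 2075, 2047 and 2149 against 2316, 1644 and 1408. At both, the homozygous arrays lay close together, while the heterozygous arrays spread to either side of them, with heterozygous 1 the highest and heterozygous 3 the lowest of all. The dimmest, 1436929_x_at, read 536, 559 and 576 against 544, 501.5 and 382. Here the suffix _x_at marks probe sets in which some probes match other sequences too, and _s_at those whose probes match several transcripts.

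All 4 Adcy3 probe sets read lowest in heterozygous 3. The signal there was 0.650, 0.627, 0.688 and 0.704 times the mean of the other 5 arrays at 1421960_at, 1421959_s_at, 1436928_s_at and 1436929_x_at, a summary chosen after the values were seen. The annotation pairs the first 2 of these probe sets with one sequence record and the other 2 with another record. They measure 1 gene in the same RNA and are not independent of each other. Heterozygous 3 was also the lowest array for 7 of the 11 mature olfactory neuron markers, beside 27.5% of all genes tested. Slc17a6 of this list went the other way and read highest there, at 2724.5 against 2470.1 to 2648.7. S100a5 (15422.7) read above all homozygous arrays (13668.4 to 15106.4). The summed signal of the 11 markers was 71792 in heterozygous 3, 90578 and 82987 in heterozygous 1 and 2, and 80353 to 87459 in homozygous arrays. No marker was at 0. The part of this marker shift in the Adcy3 values was not tested as a cause. In bulk tissue, fewer neurons and less RNA per neuron cannot be told apart.

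**Figure D1:**
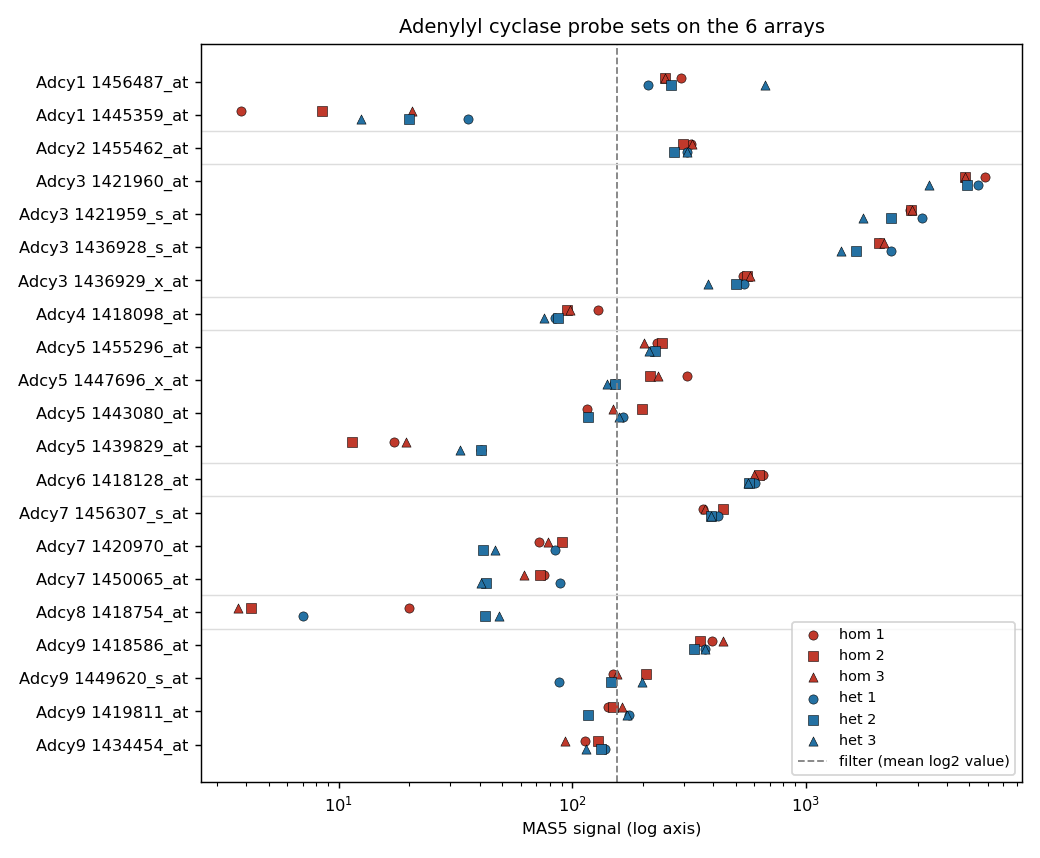
MAS5 signal of the 21 adenylyl cyclase probe sets (log axis) on the 3 homozygous (red) and 3 heterozygous (blue) arrays, with the filter on mean log2 value drawn at a signal of 155. The Adcy3 probe sets 1421960_at, 1421959_s_at and 1436928_s_at lie farthest to the right. The blue triangle of heterozygous 3 is the leftmost point at every Adcy3 probe set, the dimmer 1436929_x_at included.

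Between homozygous and heterozygous arrays, no Adcy3 probe set passed the test. Values were compared as log2(signal + 38.8) with limma, which shares the estimate of the spread over probe sets, and p-values were adjusted over all 22514 probe sets tested. The log2 difference, homozygous minus heterozygous, was 0.19 ± 0.15 (SE, n = 3 each) at 1421960_at, with a limma adjusted p of 0.911 and a 95% interval from -0.14 to 0.53. It was 0.27 ± 0.16, 0.25 ± 0.14 and 0.22 ± 0.13 at 1421959_s_at, 1436928_s_at and 1436929_x_at, each with a limma adjusted p of 0.9002. These differences moved with single arrays. Without heterozygous 3 the difference at 1421960_at was -0.01, and the other 3 fell to 0.06, 0.10 and 0.09. Without the array labelled heterozygous 1 they were 0.33, 0.48, 0.45 and 0.32 in the order of brightness, each at an unadjusted p under 0.05 in limma, and the lowest adjusted p was 0.194. Without both arrays, 3 arrays against 1, they were 0.06, 0.28, 0.34 and 0.14.

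Adcy3 was also set against the mature olfactory neuron markers of the same array. The log2 value of 1421960_at minus the mean of the 11 markers was 0.42, 0.04 and 0.03 in homozygous 1, 2 and 3, and 0.17, 0.16 and -0.20 in heterozygous 1, 2 and 3. Homozygous 1 was the highest and heterozygous 3 the lowest, and the groups overlapped. The group difference was 0.12, with a two-sided exact permutation p of 0.6, where 3 against 3 arrays cannot go below 0.1. It was 0.003 without heterozygous 3 and -0.005 without homozygous 1, so at this probe set it rested on these 2 arrays. The other 3 Adcy3 probe sets were not set against the markers in this test. At them homozygous 1 was not the array of highest Adcy3 signal. Of these 11 markers, 7 are also genes of the cAMP pathway described below.

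The other calcium- and calmodulin-stimulated cyclases read far lower. Adcy1, a cyclase known from neurons of the brain, read 292, 250 and 248 at probe set 1456487_at in homozygous arrays, and 210, 264 and 668 in heterozygous 1, 2 and 3. The signal in heterozygous 3 was 2.64 times the mean of the other 5 arrays, which lay within 210 to 292. The group difference was -0.32 ± 0.30 on the log2 scale (SE, n = 3 each), with a limma adjusted p of 0.919, and it turned to 0.13 without heterozygous 3. It was -0.62 without the array labelled heterozygous 1. In heterozygous 3 the summed signal of the 13 brain neuron markers was 11568, against 8382 to 8738 on the other arrays, with 10 of 13 highest there and none at 0. Among them Rbfox3, a nuclear protein gene of mature brain neurons, read 791 against 49.5 to 184. Eomes of the same list went the other way and read lowest there, at 205.2 against 310.5 to 510.0. Th (48.2) and Gad2 (168.4) lay within the range of the other arrays. Syt1 and Snap25 of that list are general neuronal genes that olfactory neurons express too. The part of these transcripts in the Adcy1 signal was not tested. The other Adcy1 probe set, 1445359_at, read 3.8 to 35.8 and was not raised in heterozygous 3 (12.4).

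Adcy8 was the dimmest member. Its probe set 1418754_at read 20.0, 4.2 and 3.7 in homozygous arrays and 7.0, 42.1 and 48.6 in heterozygous arrays. Heterozygous 2 and 3 were the highest and the groups overlapped through heterozygous 1. All of these values lay at or below the 27.6th percentile of probe sets on their array, near or under the offset of 38.8, so the probe set was not tested and no difference is given.

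**Figure D2:**
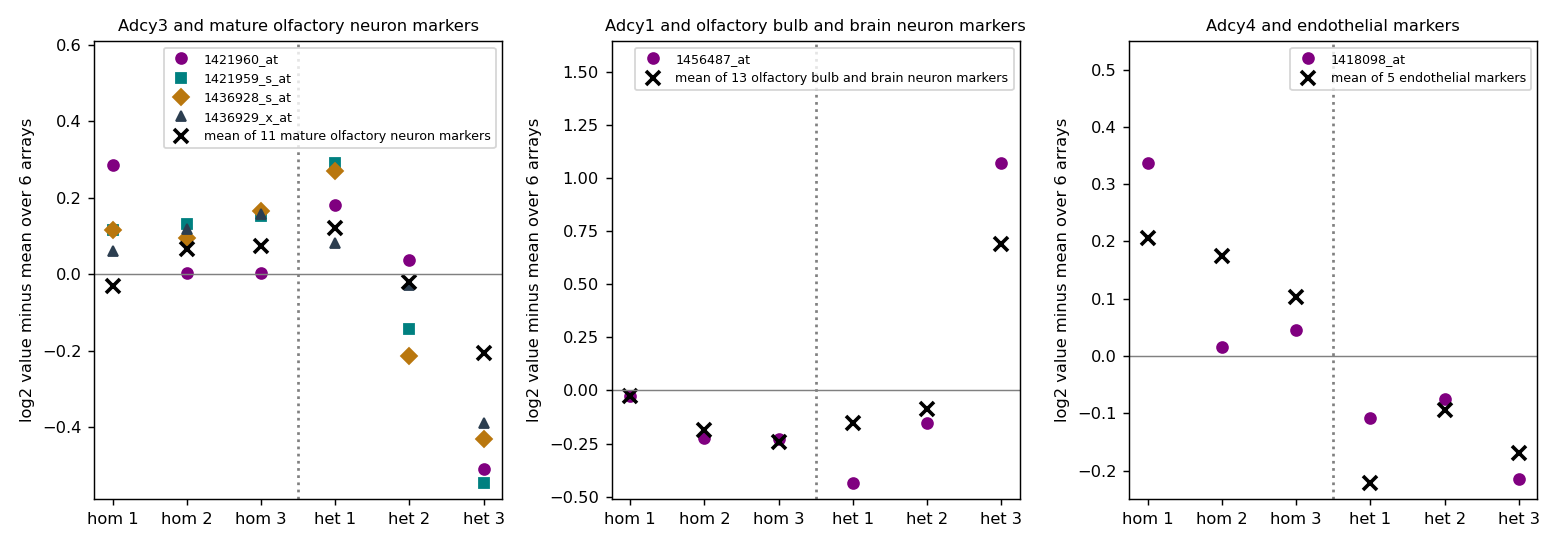
Log2 value minus its mean over the 6 arrays, per array, for Adcy3, Adcy1 and Adcy4 (coloured points, by probe set) and for the mean of a marker list (crosses), with homozygous (hom) left and heterozygous (het) right of the dotted line. In het 3, the Adcy3 points lie at -0.39 to -0.55 with the mature neuron markers at -0.21, and Adcy1 lies at 1.07 with the brain markers at 0.69.

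Among the cyclases open to G protein beta-gamma subunits, Adcy7 and Adcy2 read moderately and Adcy4 dimly. Adcy2 varied little, at 321, 298 and 323 in homozygous and 310, 272 and 311 in heterozygous arrays. Its log2 difference was 0.07 ± 0.11 (SE, n = 3 each), with a limma adjusted p of 0.963 and a 95% interval from -0.18 to 0.32. Adcy7, known from blood and immune cells, read 362, 443 and 370 against 421, 393 and 392.5 at its brightest probe set, 1456307_s_at. The difference there was -0.04 ± 0.11, with a limma adjusted p of 0.985, and was 0.009 without homozygous 1. The other 2 Adcy7 probe sets, annotated to one shared sequence record, told otherwise on single arrays. Probe set 1420970_at read 72.2, 90.1 and 78.6 in homozygous arrays and 84.3, 41.5 and 46.5 in heterozygous arrays, and 1450065_at read 75.5, 72.6 and 62.2 against 88.4, 42.8 and 40.7. At both, heterozygous 2 and 3 were the lowest arrays, while the array labelled heterozygous 1 lay among or above the homozygous ones. Both stayed below the filter on dim probe sets.

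Adcy4 was higher in every homozygous array than in any heterozygous one, at a low level. Probe set 1418098_at read 128, 94.8 and 97.6 in homozygous 1, 2 and 3, and 83.8, 86.8 and 75.2 in heterozygous 1, 2 and 3. It lay between the 35.6th and the 46.0th percentile of its array and below the filter. In the fit without a filter its difference was 0.26 ± 0.18 (SE, n = 3 each), with a limma adjusted p of 0.913, so it did not pass. All 5 measured endothelial markers were higher on average in homozygous arrays, and their summed signal was 1116, 1079 and 1003 in homozygous arrays against 761, 856 and 817.5 in heterozygous arrays, with none at 0. All 5 neutrophil, all 3 erythroid and all 4 smooth muscle and pericyte markers measured were also higher on average in homozygous arrays, though their summed signals overlapped between the groups. The part of these marker shifts in the Adcy4 values was not tested.

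Of the calcium-inhibited cyclases, Adcy6 was the second brightest gene of the family and among the steadiest. Probe set 1418128_at read 656, 631 and 598 in homozygous arrays and 607, 568 and 562 in heterozygous arrays, a ratio of highest to lowest of 1.17. The groups overlapped by a narrow margin, since heterozygous 1 read above homozygous 3. The log2 difference was 0.11 ± 0.09 (SE, n = 3 each), with a limma adjusted p of 0.915 and a 95% interval from -0.09 to 0.31.

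The 4 probe sets of Adcy5 did not give 1 answer. The brightest, 1455296_at, read 229, 242.5 and 203 in homozygous arrays and 222, 224.5 and 213.5 in heterozygous arrays, a log2 difference of 0.02 ± 0.13 (SE, n = 3 each) with a limma adjusted p of 0.992. Probe set 1447696_x_at read 310, 214 and 232 in homozygous arrays and 151.0, 152.4 and 140.9 in heterozygous arrays, so all homozygous values lay above all heterozygous ones. The heterozygous values all lay below the filter signal of 155, so this probe set was tested only because it read high in homozygous arrays, and its p gives no support. Its difference was 0.62 ± 0.15, with a 95% interval from 0.29 to 0.96, an unadjusted p of 0.00196 and a limma adjusted p of 0.859. With each array left out in turn it stayed between 0.49 and 0.72, and it did not pass adjustment in any of these fits. Probe set 1439829_at went the other way, at 17.2, 11.4 and 19.3 against 40.4, 40.7 and 32.9, again without overlap, but both group means (16.0 and 38.0) lay under the offset of 38.8, so no difference is given. Probe set 1443080_at read 116 to 199 in homozygous and 116.7 to 164 in heterozygous arrays, with overlap as at 1455296_at. Of the 4 probe sets, 1447696_x_at was the one with homozygous values above all heterozygous ones, and its suffix marks probes that match other sequences too. Whether such matches had a part in its values was not tested.

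Adcy9 was moderate at 1 probe set and dim at the other 3. Probe set 1418586_at read 396, 351 and 442 in homozygous arrays and 368, 331 and 371 in heterozygous arrays, with overlap. The log2 difference was 0.13 ± 0.12 (SE, n = 3 each), with a limma adjusted p of 0.915. The probe sets 1449620_s_at and 1419811_at, annotated to one sequence record, disagreed on the array labelled heterozygous 1. There 1449620_s_at read 87.5, its lowest value, and 1419811_at read 173.8, its highest. The remaining probe set, 1434454_at, read 93.2 to 137.7 over all arrays.

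**Figure D3:**
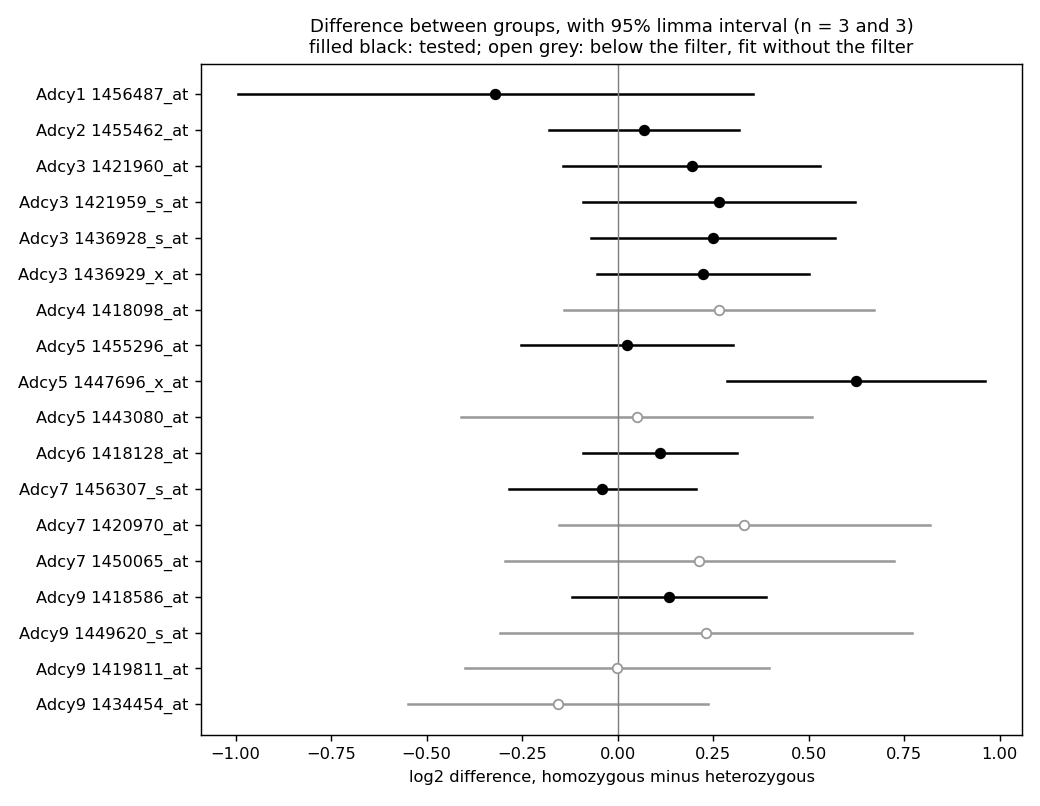
Log2 difference, homozygous minus heterozygous, with its 95% limma interval for 18 probe sets (n = 3 and 3 arrays), filled for the 11 tested and open for 7 below the filter, without the 3 whose group means both lay under the offset. The intervals of 17 include 0. That of Adcy5 at 1447696_x_at, which passed the filter only through its homozygous values, does not. Of the 3 left out, Adcy5 at 1439829_at read lower in every homozygous array than in any heterozygous one.

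Over the family, 11 of the 21 probe sets, from 7 of the 9 genes, passed the filter on low values and 0 passed an adjusted p of 0.05 in limma. Over all 22514 probe sets tested that count was 0 as well, or 0%. At an unadjusted p under 0.05 there was 1 member, Adcy5 at 1447696_x_at, where the background over all tested probe sets was 5.73%. Since that probe set passed the filter through its homozygous values alone, the count gives no support for a difference in the family. Of the 11 tested, 9 differences were above 0 and 2 below, and 4 of the 9 belong to Adcy3. The median difference was 0.13 on the log2 scale, beside 0.01 over all probe sets tested. Of all 21 probe sets, 3 had groups that did not overlap, or 14.3%, beside a background of 10.8%. Homozygous arrays were higher at 2 of these, where 6.33% of all probe sets had homozygous values above all heterozygous ones. Without the array labelled heterozygous 1, 5 of the 12 member probe sets that then passed the filter had an unadjusted p under 0.05, beside 7.06% of all tested, and 4 of the 5 were the probe sets of Adcy3. That count was 1 of 11 without heterozygous 3, beside 9.32%, and 3 of 12 without both (3 arrays against 1), beside 9.89%. Adcy5 at 1447696_x_at is 1 of the members in each of these counts.

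The order of the family by signal began with Adcy3 and Adcy6, followed by Adcy7, Adcy9, Adcy1, Adcy2, Adcy5, Adcy4 and Adcy8, each taken at its brightest probe set. Probe sets bind with different efficiency, so this is an order of signals and not of transcript amounts. Means over all arrays were 4853 for Adcy3, 603 for Adcy6, 397 for Adcy7, 376 for Adcy9, 322 for Adcy1, 306 for Adcy2, 222 for Adcy5, 94.4 for Adcy4 and 20.9 for Adcy8. From Adcy7 (362 to 443 over the arrays) through Adcy9 (331 to 442) and Adcy1 (210 to 668) to Adcy2 (272 to 323), each gene overlapped the next. Adcy2 lay above Adcy5 (203 to 242.5) on every array. Adcy1 stood above Adcy2 only through heterozygous 3, without which they changed places. The range of Adcy1 also spanned genes farther off in this order. In heterozygous 3 Adcy1 (668) read above Adcy6 (562), and in heterozygous 1 it (210) read below Adcy5 (222). Adcy3, Adcy4 and Adcy8 overlapped with no other gene at these probe sets.

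Other genes of the cAMP pathway were examined from a list of 60, of which 53 had a probe set of their own and 44 passed the filter. Of the 44, 24 had a difference above 0 and 20 below, with a median of 0.02 on the log2 scale, and 0 passed an adjusted p of 0.05 in limma (lowest adjusted p 0.951). At an unadjusted p under 0.05 there were 6, or 13.6%, beside 5.16% of all 11426 genes, 4 higher and 2 lower in homozygous arrays. That count was 11 without the array labelled heterozygous 1 and 1 to 3 without any other single array. With all arrays kept it was 3 with the arrays shifted to a common median, 2 with no intensity trend, and 1 with the mean of a gene's probe sets. Heterozygous 3 was the lowest array for 13 of the 44, or 29.5%, and for 27.5% of all genes tested.

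On the receptor side, 3 of 14 genes had an unadjusted p under 0.05, all higher in homozygous arrays, beside the 5.16% of all genes. None of the 3 had such a p with the arrays shifted to a common median, with the mean of a gene's probe sets, or without homozygous 2, homozygous 3 or heterozygous 2. Gnal, the alpha subunit of Golf that activates the Adcy3 product, read 7676, 8228 and 7933 in homozygous arrays and 7715, 6970 and 6435 in heterozygous arrays. Its log2 difference was 0.18 ± 0.07 (SE, n = 3 each), 0.11 without heterozygous 3 and 0.24 without heterozygous 1. Gnb1, a beta subunit, read 15775, 16007 and 16115 against 16894, 11990.5 and 8571, a difference of 0.41 ± 0.18. As at the Adcy3 probe sets of suffix _s_at, the homozygous arrays of Gnb1 lay close together, with heterozygous 1 above and heterozygous 3 far below them. The difference of Gnb1 was 0.17 without heterozygous 3 and 0.65 without heterozygous 1. Without both, which sets 3 homozygous arrays against heterozygous 2 alone, it was 0.41 with a limma adjusted p of 0.0395, the 1 gene of the list under 0.05 there. The third was Grk3, an odorant receptor kinase gene named after its values were seen, at 752, 758 and 847 against 680, 669 and 690.0. The limma adjusted p of these 3 genes over all arrays was 0.951.

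Downstream of the cyclase, no group of genes moved past the test. Of the channel and amplification genes, 3 passed the filter. Of these, 1, Slc12a2, the chloride uptake transporter, had an unadjusted p under 0.05, beside 5.16% of all genes. It read 9006, 9420 and 7707 against 7541, 7692 and 7817, with overlap. Its log2 difference was 0.18 ± 0.08 (SE, n = 3 each), with a limma adjusted p of 0.951. Its unadjusted p in limma was 0.142 with the arrays shifted to a common median, 0.193 without homozygous 2 and 0.00362 without homozygous 3. Of 9 phosphodiesterase genes, which remove cAMP, 0 had an unadjusted p under 0.05. Pde1c, the calcium-stimulated phosphodiesterase of olfactory cilia and the brightest of them, differed by 0.12 ± 0.17. Its difference was -0.04 without heterozygous 3 and 0.33 without heterozygous 1. Pde4a, found in the cell bodies of these neurons, differed by 0.36 ± 0.21 and read 1381, 1456 and 1343 in homozygous arrays against 1526, 1176 and 690 in heterozygous arrays, lowest in heterozygous 3. Without that array the Pde4a difference was 0.05, and without heterozygous 1 it was 0.61. Among 4 calcium-side regulators, Cap1, a cyclase-associated protein gene, differed by 0.24 ± 0.14 and was also lowest in heterozygous 3. Its difference was 0.05 without heterozygous 3 and 0.39 without heterozygous 1. Adcy10, the soluble cyclase that is no member of the membrane family, read 9.1 to 73.2 and was not tested.

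Among 14 genes of protein kinase A and other cAMP effectors, 2 had an unadjusted p under 0.05, beside 5.16% of all genes. They were lower in homozygous arrays. Each was read at a probe set of suffix _x_at, some of whose probes match other sequences too. Prkar1b, a regulatory subunit known from brain, read 201, 184 and 217 in homozygous arrays and 232, 285 and 588 in heterozygous arrays, a difference of -0.67 ± 0.25 (SE, n = 3 each) with a limma adjusted p of 0.951. Its highest value was that of heterozygous 3, as for Adcy1 and the sum of the brain markers. Without that array the Prkar1b difference was -0.31, at an unadjusted p of 0.0639 and a limma adjusted p of 0.664. Prkaca, a catalytic subunit named after its values were seen, differed by -0.22 ± 0.09, and by -0.09 with the mean of a gene's probe sets. The brightest gene of this role, Prkar1a, differed by 0.01 ± 0.08, and by -0.08 without heterozygous 3.

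**Figure D4:**
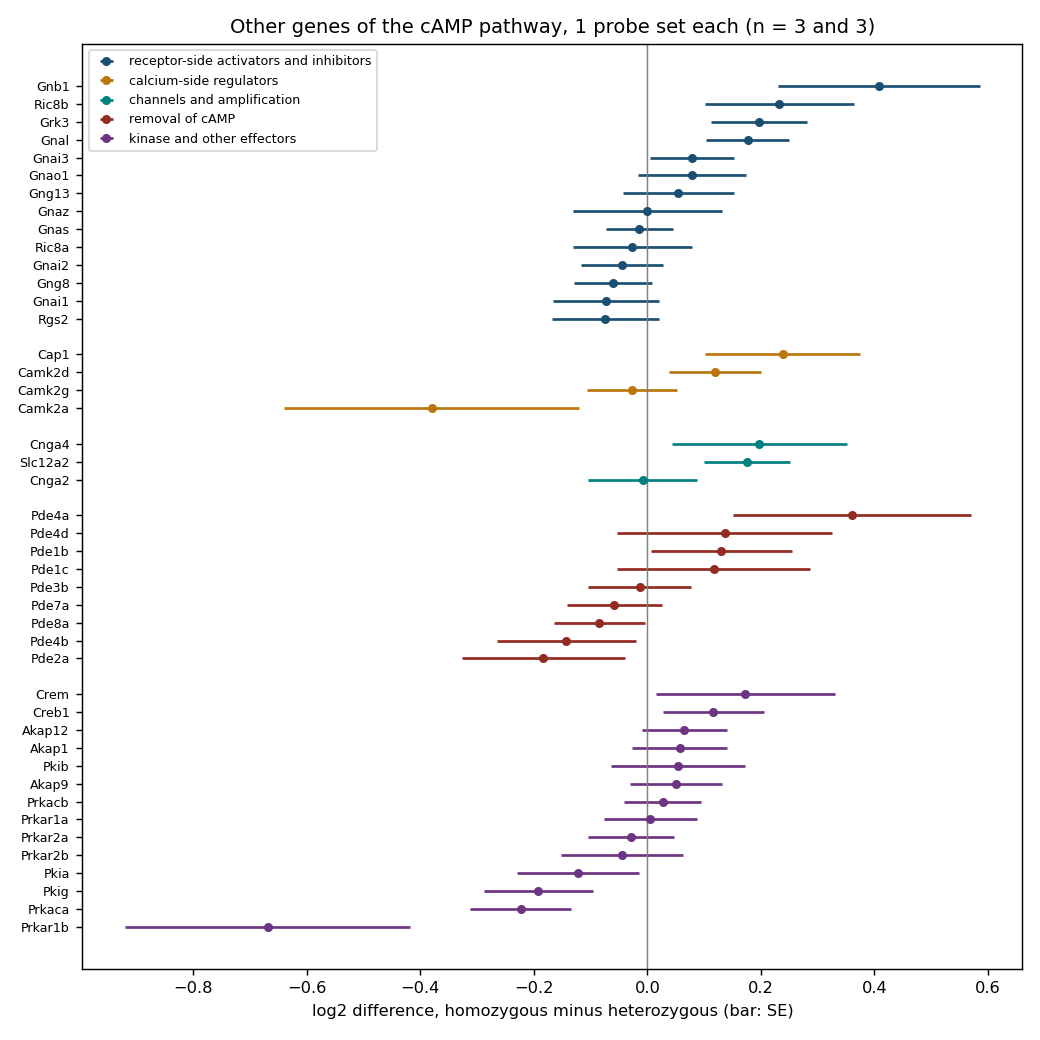
Log2 difference, homozygous minus heterozygous, with its SE for 44 other genes of the cAMP pathway, 1 probe set each, ordered by size within a role (n = 3 and 3 arrays). Gnb1 at 0.41 and Prkar1b at -0.67 are the extremes.

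The genes whose pattern over the 6 arrays was most like that of Adcy3 were found by the root mean square difference of log2 values, each centred on its own mean. The nearest of 11425 genes tested were Myh11 at 0.069, Afg3l2 at 0.074, Dll3 at 0.076, B9d2 at 0.080 and Nacc1 at 0.081. All 5 read lowest in heterozygous 3, which follows from their choice by likeness to Adcy3 and is no separate result. There were 31 genes within 0.1, the median over all genes was 0.26, and the Adcy3 profile itself had a root mean square of 0.25. Myh11, a smooth muscle myosin gene, read 331, 293 and 259 in homozygous and 285, 260 and 178 in heterozygous arrays.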

How the data were processed

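Gene expression was measured on 6 Affymetrix mouse arrays, 3 labelled homozygous and 3 heterozygous for OMP-GFP, and groups were taken from sample titles. The authors deposited 1 intensity per probe set and array, made with MAS5 per the submitters' processing notes. The version and settings of MAS5 were not given in the sources used, and the deposited scaling was kept.

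Of 45101 probe sets, 64 are controls, and the platform annotation names 1 gene for 34958, several for 932 and none for 9211. Values were analysed as log2(signal + 38.8), the pooled 25th percentile, which understates changes of dim probe sets. Probe sets with a mean log2 value at or above the median were tested (22514, or 11426 genes at the probe set of highest mean) with limma 3.58.1 in R 4.3.3 (lmFit, eBayes with trend, Benjamini-Hochberg, 4 residual and 6.68 prior degrees of freedom, median SE 0.11). The number of arrays limits the precision. The code was tested on simulated data. No 2 arrays shared over 101 identical values. Named genes were all members, the pathway gene of highest signal and of lowest p in each role, the 5 genes most like Adcy3, and Omp. Cngb1, Rbfox3, Syt1, Snap25, Adcy10, Grk3 and Prkaca were named outside this rule, after their values were seen. So were Mbp, Pmp22, S100b, Sox10, Fabp7, Eomes, Th, Gad2, Slc17a6, S100a5, Ngp, Alas2 and Ltf. Members, lists, named-gene rule and tests were chosen with earlier results of these data known. The labels do not say whether replicate numbers pair the arrays, and the main fit did not pair them. Same-numbered arrays had correlations of 0.016, -0.12 and -0.05 between their deviations from the group means. With so few arrays, these values cannot settle whether the arrays were paired.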

Additional observations from a re-analysis of the deposited data

How the results depend on the processing

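No member passed an adjusted p of 0.05 in limma under any alternative run (other offsets, quantile or median scaling, other filters, no intensity trend, the replicate block, each array left out, heterozygous 1 and 3 left out together). Leaving these 2 out together sets 3 homozygous arrays against heterozygous 2 alone, so the spread comes from the homozygous arrays and the shared estimate, and it was chosen with earlier results of these data known. Over all probe sets the count called was 0, but 1 with the pooled-median offset, 0 to 25 with 1 array left out (25 without the array labelled heterozygous 1) and 27 without heterozygous 1 and 3. The count of members at an unadjusted p under 0.05 was 1, but 2 with no filter (the other is Adcy5 at 1439829_at, with both group means under the offset), 0 with the filter at the 75th percentile, 1 to 5 with 1 array left out and 3 without heterozygous 1 and 3. Of the pathway genes 0 were called, but 1 without heterozygous 1 and 3. The difference of Adcy3 at 1421960_at relative to the markers was 0.12 and ran from -0.0048 to 0.19 with 1 array left out. The sign of some differences changed. Adcy5 at 1455296_at was -0.0067 with quantile normalization, -0.018 with median scaling, -0.0014 without heterozygous 1 and 3, and -0.024 to 0.085 with 1 array left out. Under the last setting Adcy7 at 1456307_s_at ran from -0.12 to 0.0091, Adcy3 at 1421960_at from -0.012 to 0.33 and Adcy1 at 1456487_at from -0.62 to 0.13. With the replicate block the count of members at an unadjusted p under 0.05 was 1 and no call changed, while 1106 of all probe sets had such a p against 1291. When each gene was taken at its average over probe sets, 6 of the 9 members kept their place in the order of signals, and 7 did without heterozygous 3. Signals near or under the offset of 38.8, as for Adcy8, limit what can be said of the dim members.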
